A study of Mus musculus with 6 samples.

Results

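The tau response of microglia that carry human APOE4 and lack TREM2 was described by setting 1 library, P301S/E4/TREM2-, against another, E4/TREM2-. The first came from mice with mutant human tau (P301S), human APOE4 and no TREM2, and the second from mice with human APOE4, no TREM2 and no tau transgene. Hippocampal nuclei of 9.5-month-old mice were sorted for the myeloid factor PU.1, and 3 mice were pooled into each library. A nucleus was kept with at least 200 detected genes, at most 5% of its UMIs (unique molecular identifiers, which count RNA molecules) from mitochondrial genes, and fewer than 3 UMIs over F13a1, Mrc1, Cd163, Cd209f and Cbr2, which mark macrophages of the brain's borders. This left 11383 of the 33335 deposited nuclei, 6756 from P301S/E4/TREM2- and 4627 from E4/TREM2-. The matching libraries with TREM2, P301S/E4/TREM2+ (6049 nuclei) and E4/TREM2+ (4935 nuclei), were treated in the same way and stand beside the comparison. All 4 carry APOE4, and the promoter that drives the tau transgene was not given in the sources used here. With 1 library per genotype there was no replicate, hence no test, and a difference of genotype cannot be told apart from a difference between 2 pools of mice. Intervals in parentheses are 95% counting intervals, which cover counting error only, and the UMIs of 1 nucleus are not independent. For the median of a list they are the medians of its members' lower and upper bounds.

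Microglia are the resident macrophages of the brain, and in the healthy tissue they hold a homeostatic set of genes that includes the purine receptor P2ry12 and Tmem119. TREM2 is a lipid-sensing receptor on their surface that signals through the adaptor Tyrobp, and in mouse models of amyloid the second step of the disease-associated microglia (DAM) programme depends on it. That programme lowers the homeostatic genes, raises Apoe, Lpl, Cst7, Itgax, Spp1 and Gpnmb, and equips the cell to take up, digest and export lipid. Type I interferon sets off another programme, in which factors such as STAT2 and IRF9 bind DNA at response elements and raise antiviral genes.

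The P301S/E4/TREM2- library held 7836393 UMIs, with a median of 911 per nucleus, and the E4/TREM2- library held 3810413, with a median of 707. Trem2 transcripts were counted in every library, at 588 CPM (UMIs scaled to a total of 1000000 per library) in P301S/E4/TREM2-, 360.3 in E4/TREM2-, 1127 in P301S/E4/TREM2+ and 934 in E4/TREM2+, and in 2 further tau libraries of mice without Apoe, otherwise of the same age, tissue and sort, at 473 in P301S/EKO/TREM2- and 987 in P301S/EKO/TREM2+. The level was lower in the libraries labelled TREM2- than in those labelled TREM2+, and the counted part of the transcript was not absent from them, so the count checks the deletion only in part. The human APOE4 and tau transgenes have no feature of their own in the deposited matrices, and Apoe here is the mouse feature. Mapt, the mouse tau feature, had 16.3 CPM in P301S/E4/TREM2-, against 24.1 CPM in E4/TREM2-. With TREM2 it had 34.9 CPM in P301S/E4/TREM2+, against 19.3 CPM in E4/TREM2+. Without Apoe it had 45.8 CPM in P301S/EKO/TREM2- and 44.4 CPM in P301S/EKO/TREM2+. P301S/E4/TREM2- was thus the lowest library, whereas every other tau library was above both E4 libraries. The tau label of P301S/E4/TREM2- was therefore not visible in this feature, unlike that of the other tau libraries. Whether Mapt counts reads of the transgene was not tested. The 13 microglial markers, among them P2ry12 and C1qa, all passed the level filter and summed to 16391 CPM in P301S/E4/TREM2-, against 25803 CPM in E4/TREM2-. The labels' cell type was therefore visible in both libraries, and other cell types are given beside the results they touch. The libraries of the comparison shared 8 cell barcodes, 7 of them among the nuclei kept.

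Of 9271 genes with a mean of at least 10 CPM over P301S/E4/TREM2- and E4/TREM2-, 602 were at least 2-fold higher in P301S/E4/TREM2- (6.49%) and 459 at least 2-fold lower (4.95%). In the TREM2+ pair the same genes gave 451 at least 2-fold higher (4.86%) and 379 at least 2-fold lower (4.09%). The filter uses the mean of the pair, so a gene high in 1 library passes it, and counts over the genes that passed are descriptions. The median log2 ratio of all genes was 0.13 in the TREM2- pair, and with every ratio set relative to it the split became 466 higher and 557 lower. Of the 602 genes, 568 lay on the same side of 0 in the TREM2+ pair and 324 were at least 2-fold higher there too, which is 53.8% of the 602 and 71.8% of the 451. Of the 459 genes, 423 lay on the same side and 246 were at least 2-fold lower in both pairs, 53.6% of the 459 and 64.9% of the 379. The pairs share no library. Counts of list members past 2-fold below are to be set beside the 6.49% higher and 4.95% lower of all genes. Below, a value given for a gene without a unit is its log2 ratio of CPM, P301S/E4/TREM2- over E4/TREM2-.

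**Figure D1:**
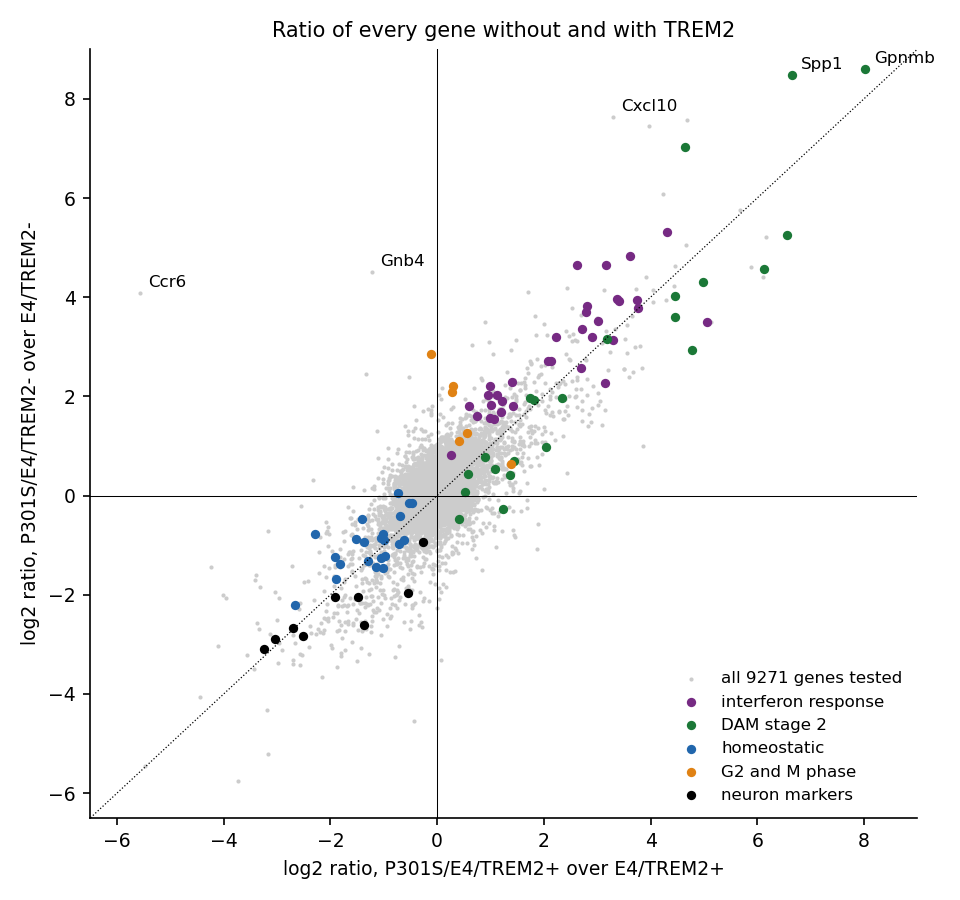
Log2 ratio of CPM for each of the 9271 genes, P301S/E4/TREM2- over E4/TREM2- on the vertical axis and P301S/E4/TREM2+ over E4/TREM2+ on the horizontal axis, with 5 gene lists coloured and a dotted line where both ratios are equal. DAM stage 2 and interferon genes lie at the upper right, homeostatic genes and neuron markers at the lower left, 5 of the 6 G2 and M phase genes above 1 on the vertical axis, and Ccr6 and Gnb4 have opposite signs in the 2 pairs.

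Named by size alone, the 15 highest genes with a mean of at least 20 CPM were Gpnmb, Spp1, Cxcl10, Hpse, Ahnak2, Cd300lf, Gm13391, Cst7, Oas2, Ikbke, Axl, Gnb4, Rai14, Lpl and Iigp1. Gpnmb, Spp1, Cst7, Axl and Lpl are DAM genes, Cxcl10, Oas2 and Iigp1 are induced by interferon, and Ikbke encodes a kinase that acts in interferon induction. Hpse encodes heparanase, which cuts heparan sulphate in the extracellular matrix, and had 50.3 CPM in P301S/E4/TREM2-, against 0.262 CPM in E4/TREM2- (394 against 1 UMIs). Ahnak2, a large scaffold protein, had 91.8 CPM in P301S/E4/TREM2-, against 0.525 CPM in E4/TREM2- (719 against 2 UMIs). Cd300lf, a lipid-binding receptor of myeloid cells, had 230.0 CPM in P301S/E4/TREM2-, against 3.41 CPM in E4/TREM2-, a log2 ratio of 6.07 (5.30 to 6.99). These 3 genes were rare in E4/TREM2- and were also higher in the TREM2+ pair, by 4.69, 3.96 and 4.24 on the log2 scale.

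The homeostatic list was lower in P301S/E4/TREM2- in nearly every member. All 22 genes passed the level filter, 9 were at least 2-fold lower, none at least 2-fold higher, and 21 lay below 0, with a median log2 ratio of -0.91 (-1.04 to -0.87) beside 0.13 for all genes. P2ry12, through which microglia sense ATP and ADP, had 527 CPM in P301S/E4/TREM2-, against 1381 CPM in E4/TREM2-, a log2 ratio of -1.39 (-1.45 to -1.33). Tmem119, a membrane protein used to mark microglia, had 250.4 CPM in P301S/E4/TREM2-, against 594 CPM in E4/TREM2-, a log2 ratio of -1.25 (-1.33 to -1.16). Both were more than 2-fold lower, as were Cx3cr1, the receptor for neuronal fractalkine (-1.26), Selplg, the selectin ligand PSGL-1 (-1.68), and Cst3, the secreted protease inhibitor cystatin C (-1.47). The lowest was Slc2a5, a fructose transporter, at 49.5 CPM in P301S/E4/TREM2-, against 227 CPM in E4/TREM2- and a log2 ratio of -2.20 (-2.38 to -2.02). The list was not lower throughout. Csf1r, the receptor that microglia need for survival, was -0.78, Sall1, a factor of microglial identity, -0.16, Fcrls -0.16 and Il10ra, the interleukin 10 receptor, 0.06. In the TREM2+ pair the list's median was -1.05, with 15 members at least 2-fold lower. The list of lineage factors and TGF-beta signalling had no member past 2-fold in the TREM2- pair and a median of -0.15 (-0.30 to 0.00), beside -0.22 in the TREM2+ pair.

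The first step of the DAM programme, which is known as TREM2-independent in amyloid models, was higher in P301S/E4/TREM2-. Of 10 genes, 6 were at least 2-fold higher and none at least 2-fold lower, and the median log2 ratio was 1.07 (0.97 to 1.27), beside 1.31 in the TREM2+ pair. Apoe, the lipid carrier, had 784 CPM in P301S/E4/TREM2-, against 135 CPM in E4/TREM2- (6144 against 514 UMIs), a log2 ratio of 2.54 (2.41 to 2.67). With TREM2 it had 1177 CPM in P301S/E4/TREM2+, against 128 CPM in E4/TREM2+, a log2 ratio of 3.20 (3.06 to 3.34). The 2 E4 libraries were thus close in Apoe, and both P301S/E4 libraries were far above them. Lyz2, the bacteriolytic enzyme lysozyme, was higher by 2.31 and Ctsb, the lysosomal protease cathepsin B, by 1.51. Tyrobp, the TREM2 adaptor, was 0.12 and Fth1, the ferritin heavy chain, -0.20.

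Genes of the second DAM step, which depends on TREM2 in amyloid models, were also higher in P301S/E4/TREM2-, in a library with the receptor deleted. Of the 22 listed genes with a feature, all passed the filter, 13 were at least 2-fold higher and none at least 2-fold lower, with a median of 1.97 (1.79 to 2.26) beside 2.19 in the TREM2+ pair. In the TREM2+ pair 18 of them were at least 2-fold higher. Their UMIs summed to 5167 CPM in P301S/E4/TREM2-, against 2566 CPM in E4/TREM2-. With TREM2 they summed to 6726 CPM in P301S/E4/TREM2+, against 2250 CPM in E4/TREM2+. Gpnmb (ENSMUSG00000029816, chr6:49036546-49070929 on mm10), a glycoprotein of endosomes and lysosomes that rises with lysosomal stress, gave 2386 against 3 UMIs, or 304 CPM in P301S/E4/TREM2-, against 0.787 CPM in E4/TREM2-, a log2 ratio of 8.60 (7.05 to 10.87). In the TREM2+ libraries it gave 1268 UMIs in P301S/E4/TREM2+ and 0 in E4/TREM2+, at least 261-fold higher against a floor of 3 UMIs in the library at 0. Spp1, the secreted matrix protein osteopontin, gave 732 against 1 UMIs, or 93.4 CPM in P301S/E4/TREM2-, against 0.262 CPM in E4/TREM2-, a log2 ratio of 8.48 (5.99 to 13.78). Both genes were almost absent from E4/TREM2-, so the upper ends of their ratios are set by 1 to 3 UMIs. Lpl, the lipase that splits triglycerides of lipoproteins, had 103 CPM in P301S/E4/TREM2-, against 5.25 CPM in E4/TREM2- (log2 ratio 4.30, interval 3.66 to 5.02). Axl, a receptor that binds dying cells through Gas6, had 118 CPM in P301S/E4/TREM2-, against 4.99 CPM in E4/TREM2- (log2 ratio 4.57, interval 3.91 to 5.30). Cst7, an inhibitor of lysosomal cathepsins, was higher by 5.25, Csf1, a growth factor of microglia, by 4.01, and Igf1, insulin-like growth factor 1, by 2.93. Lilrb4a, an inhibitory receptor with a near-identical neighbour in the genome, was higher by 3.16. Other members stayed within 2-fold, among them Cd68, a lysosomal membrane protein, at 0.08, the chemokines Ccl6 at -0.26 and Ccl3 at -0.48, and the protease Ctsl at 0.42. Clec7a, a further gene of this programme, has no feature in the matrices and was not analysed here.

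Beside the TREM2+ libraries, the members differed in level in P301S/E4/TREM2-. Spp1 had 93.4 CPM in P301S/E4/TREM2-, against 442 CPM in P301S/E4/TREM2+, while the E4 libraries held 0.262 CPM without TREM2 and 4.39 CPM with it. Lpl had 103 CPM in P301S/E4/TREM2-, against 372 CPM in P301S/E4/TREM2+, and Itgax, the integrin chain CD11c, had 25.4 and 116 CPM. Igf1 had 58.2 CPM in P301S/E4/TREM2-, against 129 CPM in P301S/E4/TREM2+. These 4 genes were lower without TREM2 than with it among the P301S/E4 libraries, whereas Gpnmb was 304 CPM in P301S/E4/TREM2-, against 229 CPM in P301S/E4/TREM2+. The difference between the pairs was not tested. The markers of border-associated macrophages that remained after the filter summed to 653 CPM in P301S/E4/TREM2-, against 486 CPM in E4/TREM2-, with Ms4a7 at 141 against 45.7 CPM, Stab1 at 474 against 399 CPM, Pf4 at 4.47 against 8.66 CPM and Lyve1 at 0.893 against 3.94 CPM, and none of the 9 was at 0. Their part in the results was not tested. The 50 genes of the authors' TERM state, a microglial state that the study named and chose on these libraries, are no independent evidence of a direction. Of them, 40 were at least 2-fold higher and none at least 2-fold lower in P301S/E4/TREM2-, with a median of 1.91 (1.65 to 2.06) beside 1.70 in the TREM2+ pair.

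**Figure D2:**
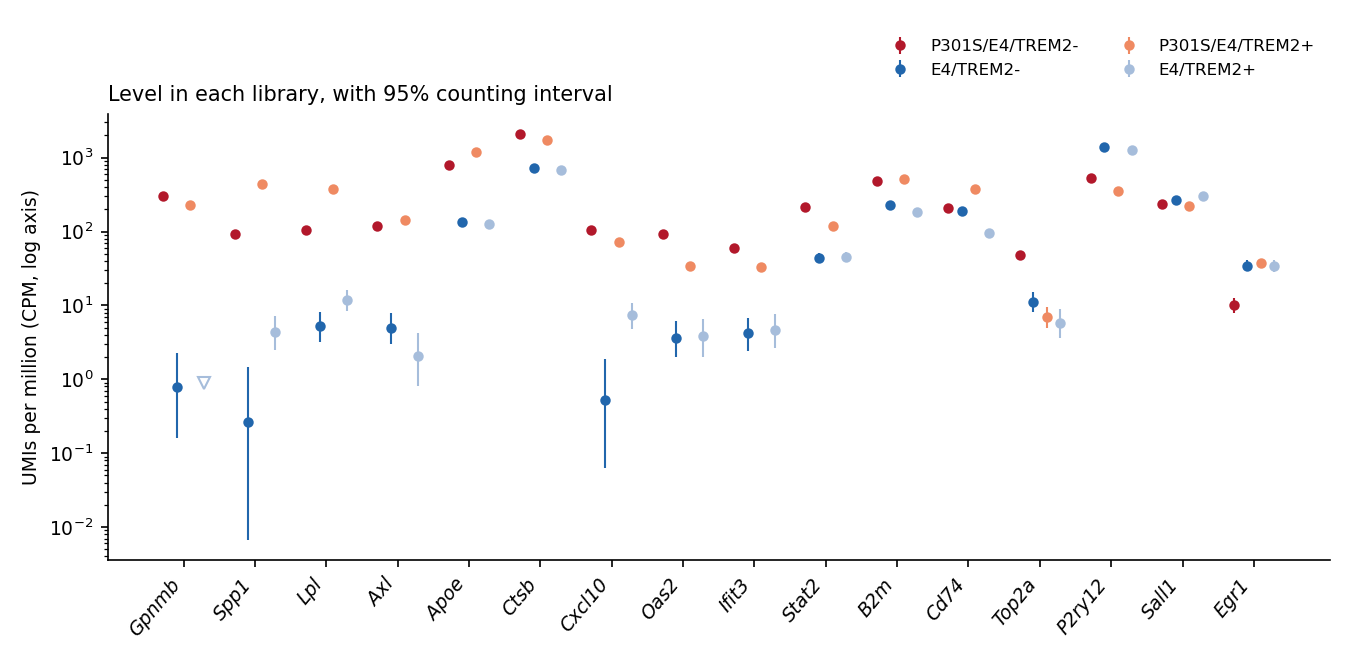
Level of 16 genes in 4 libraries, in CPM on a log axis, with vertical lines for 95% counting intervals and an open triangle at the floor of 3 UMIs for Gpnmb in E4/TREM2+, where its count was 0. For each gene the order is P301S/E4/TREM2-, E4/TREM2-, P301S/E4/TREM2+ and E4/TREM2+. Gpnmb and Spp1 are near or under 1 CPM in E4/TREM2-, Cd74 is at 207 against 189.7 CPM in the TREM2- pair, and Top2a at 47.7 CPM is highest in P301S/E4/TREM2-.

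Genes that export and store lipid were higher together in P301S/E4/TREM2-. Of 24 listed genes 14 passed the level filter, of which 9 were at least 2-fold higher and none at least 2-fold lower, with a median of 1.51 (1.27 to 1.65) beside 1.13 in the TREM2+ pair. Abca1 and Abcg1 pump cholesterol out of the cell, Plin2 coats lipid droplets, Soat1 esterifies cholesterol for storage and Nceh1 frees it again. Abca1 had 1042 CPM in P301S/E4/TREM2-, against 354 CPM in E4/TREM2-, a log2 ratio of 1.56 (1.47 to 1.64), and Abcg1 was higher by 1.40. Plin2 had 57.9 CPM in P301S/E4/TREM2-, against 13.1 CPM in E4/TREM2- (log2 ratio 2.14, interval 1.72 to 2.59), Soat1 was higher by 1.47 and Nceh1 by 1.83. Lipa, the lysosomal acid lipase, lay below 2-fold at 0.91, and Lrp1, an uptake receptor for Apoe particles, was near 0 at 0.28. Among the genes under the level filter, Ch25h, which makes 25-hydroxycholesterol, gave 89 against 4 UMIs and Apoc1, an apolipoprotein of the Apoe cluster, 75 against 1 UMIs. The 9 genes of cholesterol synthesis had none past 2-fold and a median of -0.29 (-0.64 to 0.16).

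The lysosomal list was mixed. Of 31 genes 29 passed, 4 were at least 2-fold higher and 1 at least 2-fold lower, and the median was 0.55 (0.34 to 0.61), beside 0.47 in the TREM2+ pair. Over all genes 6.49% were at least 2-fold higher and 4.95% at least 2-fold lower. Cd63, a tetraspanin of late endosomes, was higher by 1.93 and Ctsb by 1.51. Grn, which encodes the lysosomal regulator progranulin, had 932 CPM in P301S/E4/TREM2-, against 466 CPM in E4/TREM2- (log2 ratio 1.00, interval 0.92 to 1.07). Ctss, a cathepsin of antigen-presenting cells, was -0.14 and Lamp1, a lysosomal membrane protein, 0.13. The proton pump and its transcription factors gave 4 of 17 genes at least 2-fold higher, with a median of 0.45 (0.32 to 0.58), Mitf, a factor that drives lysosomal genes, at 1.30 and the pump subunit Atp6v1b2 at 1.41. Atp6v0d2, a pump subunit of macrophages and osteoclasts, was under the level filter at 135 against 0 UMIs.

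The interferon response stood out by its count. Of 39 listed genes with a feature 33 passed the level filter and 32 of these were at least 2-fold higher in P301S/E4/TREM2-, none lower, with a median of 2.72 (2.43 to 3.50) beside 2.63 in the TREM2+ pair. The UMIs of the list summed to 3540.0 CPM in P301S/E4/TREM2-, against 784 CPM in E4/TREM2-, and in the TREM2+ libraries to 2371 CPM in P301S/E4/TREM2+, against 829.6 CPM in E4/TREM2+. The promoters of several members hold the core of the interferon response element, to which a complex with STAT2 and IRF9 binds. It was searched on both strands as GAAANNGAAA (N is any base) in the RefSeq window of 250 bases before to 50 after each gene's start on GRCm38.p6. The core lay in 3.99% of 27025 promoters. Of the 33 interferon genes 23 matched the table, 69.7%, too few for a share over the list, and 14 of those 23 held it. Stretches of 6 promoters are shown because their genes carry the response described next, each on the gene's strand. Only the match nearest before the gene's start is in capitals. Before the start, Isg15 had 3 matches and Oas1a and Ifit3 had 2, and further matches within a stretch are in lower case. The stretches are chr5:92349068-92349127 on the minus strand for Cxcl10, chr5:120907526-120907564 on the minus strand for Oas1a, chr19:34583382-34583441 on the plus strand for Ifit3, chr4:156200850-156200909 on the minus strand for Isg15, chr10:128270251-128270310 on the plus strand for Stat2 and chr2:122147523-122147582 on the plus strand for B2m.
Cxcl10: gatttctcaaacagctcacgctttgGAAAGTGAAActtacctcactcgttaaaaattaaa
Oas1a: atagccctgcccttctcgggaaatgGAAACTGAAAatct
Ifit3: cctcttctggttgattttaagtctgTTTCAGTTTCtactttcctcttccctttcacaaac
Isg15: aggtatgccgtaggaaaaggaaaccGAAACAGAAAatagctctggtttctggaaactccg
Stat2: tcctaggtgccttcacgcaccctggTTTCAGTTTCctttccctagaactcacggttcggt
B2m: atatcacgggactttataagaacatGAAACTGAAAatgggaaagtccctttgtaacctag
In Ifit3 and Stat2 the core reads in the reverse orientation. A match is a description of the letters and not a bound site.

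The antiviral effectors came first by ratio. Oas1a, which makes a messenger that activates an RNA-degrading enzyme, had 37.1 CPM in P301S/E4/TREM2-, against 1.31 CPM in E4/TREM2- (291 against 5 UMIs), a log2 ratio of 4.82 (3.58 to 6.46), though reads of it and of the near-identical Oas1g are uncertain between them. Oas2, of the same family, had 91.8 CPM in P301S/E4/TREM2-, against 3.67 CPM in E4/TREM2-, a log2 ratio of 4.64 (3.89 to 5.52), and in the TREM2+ pair 34 CPM in P301S/E4/TREM2+, against 3.81 CPM in E4/TREM2+. Ifit3, which binds viral RNA with other IFIT proteins and has the close copy Ifit3b, had 59.3 CPM in P301S/E4/TREM2-, against 4.20 CPM in E4/TREM2- (log2 ratio 3.82, interval 3.11 to 4.64). All 3 were at a few CPM in E4/TREM2-. Mx1, a GTPase that blocks viral particles, was higher by 3.36, Isg15, a ubiquitin-like modifier, by 2.56, and Rsad2, which encodes viperin, by 3.70. Usp18, which removes Isg15 and damps the interferon receptor, was higher by 3.14. The smallest ratio of the 33 was 0.81, for Ddx58, which encodes the RNA sensor RIG-I, while Ifih1, the related sensor MDA5, was higher by 1.91. Of the 6 genes with a feature that missed the level filter, Ifit1 gave 134 against 2 UMIs, Oas3 56 against 2 UMIs, and Ifi44l had none in either library. In the TREM2+ pair 27 of the same 33 genes were at least 2-fold higher.

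The factors that carry the signal were higher in part. Stat2 had 213 CPM in P301S/E4/TREM2-, against 43.3 CPM in E4/TREM2-, a log2 ratio of 2.30 (2.06 to 2.54), and 120.3 CPM in P301S/E4/TREM2+, against 45.4 CPM in E4/TREM2+. Irf9 was higher by 1.48 and Irf7, the factor that amplifies interferon production, by 3.19. Irf3, the factor that is present before stimulation, was -0.09 and Irf8, a lineage factor of microglia, 0.64. Over 15 factors 13 passed and 6 were at least 2-fold higher, with a median of 0.81 (0.57 to 1.25) beside 0.17 in the TREM2+ pair, where 3 were. Of 18 interferon-inducible GTPases with a feature, which attack vacuoles of parasites, only 8 passed and 4 were at least 2-fold higher, led by Iigp1 at 38.03 CPM in P301S/E4/TREM2-, against 2.10 CPM in E4/TREM2-. Of 12 genes of the PYHIN family, sensors of DNA and close copies of each other whose reads are uncertain between them, 8 passed and 6 were at least 2-fold higher, and Ifi204 had 324 CPM in P301S/E4/TREM2-, against 26.2 CPM in E4/TREM2- (log2 ratio 3.63, interval 3.34 to 3.93). Aim2, the family's inflammasome sensor, was 0.16. Mndal was 1.31 in the TREM2- pair and -1.13 in the TREM2+ pair, and Ifi203 was 0.76 and -1.12.

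MHC class I, which presents peptides from within the cell, was higher in P301S/E4/TREM2-, and the class II genes that passed the level filter had a median near 0. Of 16 class I genes 9 were at least 2-fold higher and none at least 2-fold lower, with a median of 1.22 (0.97 to 1.49) beside 1.17 in the TREM2+ pair. B2m, the light chain of every class I molecule, had 488 CPM in P301S/E4/TREM2-, against 231 CPM in E4/TREM2- (log2 ratio 1.08, interval 0.98 to 1.19). The heavy chain H2-K1 had 701 CPM in P301S/E4/TREM2-, against 175 CPM in E4/TREM2- (log2 ratio 2.01, interval 1.89 to 2.12), and H2-D1 was higher by 1.69. Nlrc5, the activator of class I transcription, had 57.2 CPM in P301S/E4/TREM2-, against 3.67 CPM in E4/TREM2- (448 against 14 UMIs), a log2 ratio of 3.96 (3.20 to 4.84). Tap1, one chain of the peptide transporter, was higher by 1.73 and its partner Tap2 was -0.20. H2-Q6 and H2-Q7 were higher by 4.16 and 3.93, but they are near-identical copies and their reads are uncertain. Of 9 class II genes 8 passed, none was at least 2-fold higher, H2-Oa was -1.43, and the median was -0.04 (-0.27 to 0.18), beside 0.49 in the TREM2+ pair. Ciita, under the level filter, gave 95 against 18 UMIs, a log2 ratio of 1.36 (0.62 to 2.17), beside 1.40 in the TREM2+ pair. Cd74, the invariant chain that escorts class II molecules, had 207 CPM in P301S/E4/TREM2-, against 189.7 CPM in E4/TREM2- (log2 ratio 0.13, interval 0.00 to 0.26), and with TREM2 382 CPM in P301S/E4/TREM2+, against 95.1 CPM in E4/TREM2+ (log2 ratio 2.00, interval 1.83 to 2.18). H2-Aa, a class II alpha chain, had 77.6 CPM in P301S/E4/TREM2-, against 82.9 CPM in E4/TREM2- (log2 ratio -0.10, interval -0.29 to 0.10), and with TREM2 117 CPM in P301S/E4/TREM2+, against 36.3 CPM in E4/TREM2+ (log2 ratio 1.68, interval 1.40 to 1.97). For both, E4/TREM2- was above E4/TREM2+ and P301S/E4/TREM2- below P301S/E4/TREM2+.

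Chemokines and inflammatory genes were split. Of 20 chemokines and receptors 14 passed and 7 were at least 2-fold higher, with a median of 0.88 (0.40 to 1.32) beside 0.38 in the TREM2+ pair. Cxcl10 (ENSMUSG00000034855, chr5:92346638-92348889 on mm10), which draws T cells and is induced by interferon, had 104 CPM in P301S/E4/TREM2-, against 0.525 CPM in E4/TREM2- (816 against 2 UMIs), a log2 ratio of 7.63 (5.77 to 10.68). In the TREM2+ pair it had 71.8 CPM in P301S/E4/TREM2+, against 7.32 CPM in E4/TREM2+ (log2 ratio 3.29, interval 2.71 to 3.94), so the pairs differed mainly in their E4 library. Ccl12 and Ccl8, which draw monocytes, were higher by 1.69 and 1.73. Markers of monocytes summed to 47.2 CPM in P301S/E4/TREM2-, against 22.3 CPM in E4/TREM2-, most of it Ccr2, and 4 of the 7 (Chil3, Plac8, Ly6c2 and F10) were at 0 in E4/TREM2- and at 12 to 46 UMIs in P301S/E4/TREM2-; their part in these results was not tested. Among genes of NF-kB signalling and cytokines 15 of 20 passed and 5 were at least 2-fold higher, with a median of 0.79 (0.55 to 1.22). Tnf, a main inflammatory cytokine, had 35.2 CPM in P301S/E4/TREM2-, against 7.87 CPM in E4/TREM2- (log2 ratio 2.16, interval 1.62 to 2.76), and Tnfaip3, a brake on NF-kB, was higher by 1.15. Il1b, interleukin 1 beta, gave only 58 against 50 UMIs and a log2 ratio of -0.83 (-1.40 to -0.25). Of the Toll-like receptor list 12 of 14 passed, with 2 higher (Tlr2 and Tlr1, at 1.48 and 1.47) and 2 lower (Tlr5 and Cd14, at -2.06 and -1.57) past 2-fold. Over all genes the shares past 2-fold were 6.49% higher and 4.95% lower.

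Genes of DNA replication and division were higher in P301S/E4/TREM2- and close to their E4 library in the TREM2+ pair. Most of them were rare, and only 14 of 25 S phase genes and 6 of 26 G2 and M phase genes passed the level filter. Of the S phase genes that passed 6 were at least 2-fold higher, with a median of 0.88 (0.37 to 1.33) beside 0.18 in the TREM2+ pair. Of the G2 and M phase genes that passed 5 were, with a median of 1.68 (1.06 to 2.27) beside 0.36. Mki67, which marks dividing cells, had 24.6 CPM in P301S/E4/TREM2-, against 3.41 CPM in E4/TREM2- (193 against 13 UMIs), a log2 ratio of 2.85 (2.04 to 3.79). With TREM2 it had 2.17 CPM in P301S/E4/TREM2+, against 2.34 CPM in E4/TREM2+ (log2 ratio -0.11, interval -1.52 to 1.39). Top2a, the topoisomerase that untangles chromosomes, had 47.7 CPM in P301S/E4/TREM2-, against 11.3 CPM in E4/TREM2- (log2 ratio 2.08, interval 1.62 to 2.57), and with TREM2 7.05 CPM in P301S/E4/TREM2+, against 5.85 CPM in E4/TREM2+ (log2 ratio 0.27, interval -0.54 to 1.12). Both genes were thus highest of the 4 libraries in P301S/E4/TREM2-. Knl1, a kinetochore scaffold, was higher by 2.21, Dtl, which marks the licensing factor Cdt1 for destruction, by 2.02, and Hells, a chromatin remodeller of S phase, by 1.65. Cenpf, a kinetochore protein, had the larger ratio with TREM2, at 0.63 without TREM2 and 1.38 with it. Pcna, the replication clamp, was 0.39 and Mcm7, of the replicative helicase, -0.10.

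Immediate early genes, which a stimulus switches on within minutes, were lower in most members that passed. Of 18 listed 10 passed, 4 were at least 2-fold lower and none at least 2-fold higher, with a median of -0.88 (-1.05 to -0.70) beside -0.32 in the TREM2+ pair. Egr1, a transcription factor, had 10.1 CPM in P301S/E4/TREM2-, against 34.6 CPM in E4/TREM2- (79 against 132 UMIs), a log2 ratio of -1.78 (-2.20 to -1.37), and with TREM2 37.3 CPM in P301S/E4/TREM2+, against 34.5 CPM in E4/TREM2+. Btg2, an antiproliferative factor, was -1.76, while Atf3, a stress factor, was 0.84. All 13 genes of the mitochondrial genome lay below 0, 4 of them past 2-fold, with a median of -0.89 (-1.02 to -0.80) beside -1.27 in the TREM2+ pair. Of 75 nuclear genes of oxidative phosphorylation 9 were at least 2-fold lower and none higher, with a median of -0.50 (-0.78 to -0.16) beside -0.07. The median mitochondrial share of a nucleus was 0.236% in P301S/E4/TREM2- and 0.864% in E4/TREM2-, a measure of RNA from outside the nucleus, and its part in these ratios was not tested. Ribosomal protein genes had a median of 0.01 (-0.16 to 0.18) over 80 genes, and glycolysis 0.16 (-0.14 to 0.41) over 17.

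Complement, matrix and growth factor genes gave single members rather than whole lists. C4b, a complement component, had 121 CPM in P301S/E4/TREM2-, against 13.1 CPM in E4/TREM2- (log2 ratio 3.21, interval 2.80 to 3.65), whereas the C1q chains C1qa, C1qb and C1qc were -0.17, -0.12 and -0.20, and the complement median was -0.15 (-0.23 to -0.06), which turned to 0.18 with no level filter. C3, the central complement protein, was under the level filter at 111 against 0 UMIs. Of 10 matrix genes 5 were at least 2-fold higher. Mmp12, the macrophage elastase, gave 173 against 0 UMIs, at least 28.04-fold higher against a floor of 3 UMIs, and Adam33, a membrane protease, was higher by 3.32. Of 11 growth factors and receptors 5 were at least 2-fold higher and 1 lower, with Hgf, hepatocyte growth factor, at 24.8 CPM in P301S/E4/TREM2-, against 2.62 CPM in E4/TREM2-. Among phagocytic receptors 3 of 11 were at least 2-fold higher, Axl, Itgax and the scavenger receptor Msr1 (3.13), while Mertk, the Gas6 receptor of resting microglia, was -0.02. The signalling chain below TREM2, 18 genes from Tyrobp and Syk onward, had 1 past 2-fold, the kinase Fgr at 3.01. That count is near the share of all genes, of which 6.49% were at least 2-fold higher and 4.95% at least 2-fold lower. The median of the chain was 0.31 (0.09 to 0.46), beside 0.13 for all genes, with Syk at 0.41 and Plcg2 at 0.45. Of 15 inhibitory receptors 4 were at least 2-fold higher, among them Cd274, which encodes PD-L1, at 2.26, and 2 lower, Vsir at -1.01 and Siglece, a sialic acid receptor, at -1.93.

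**Figure D3:**
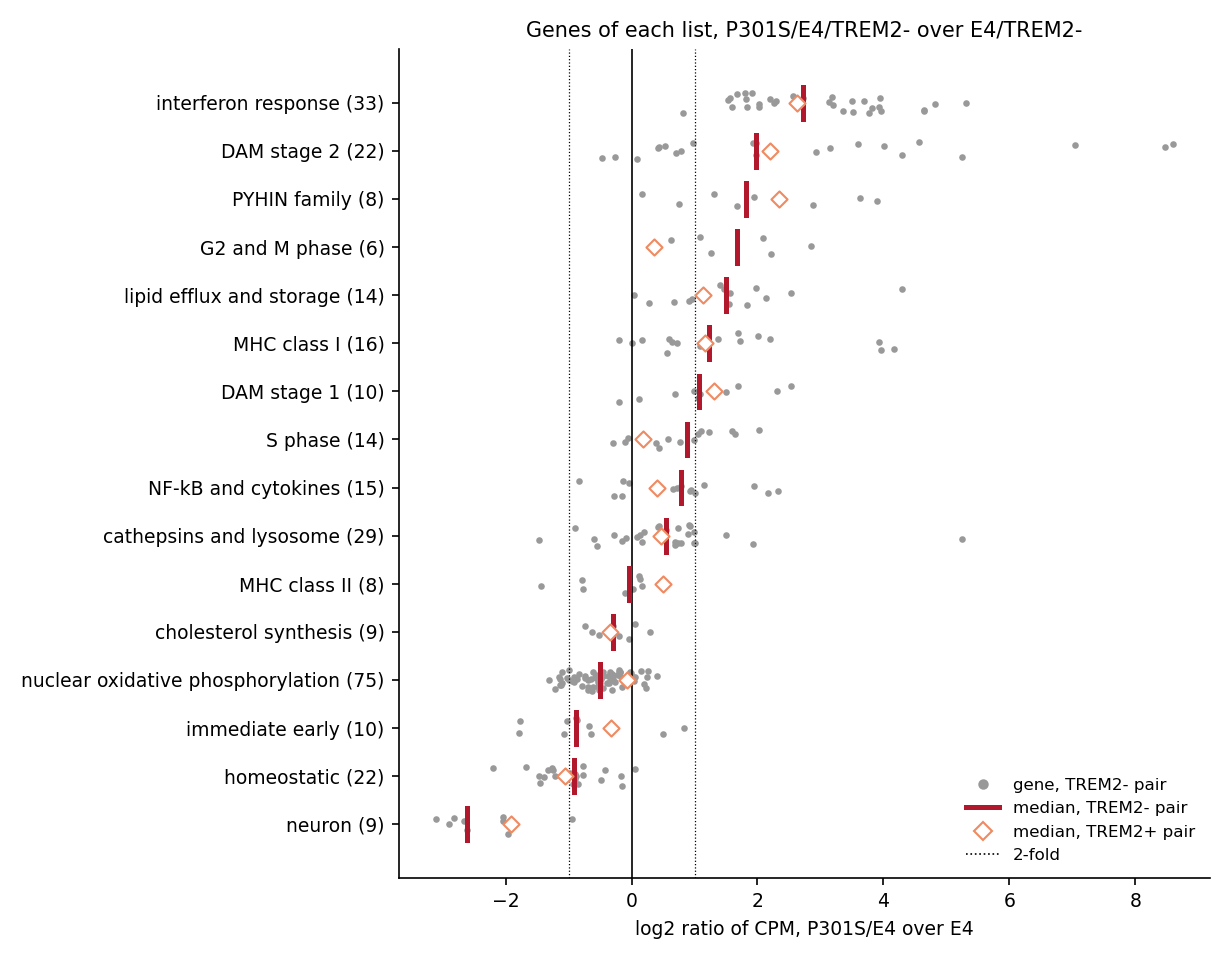
Log2 ratio of CPM, P301S/E4/TREM2- over E4/TREM2-, for each gene that passed the level filter (grey points), with the median of the list (red bar) and the median of the TREM2+ pair (open diamond); the number of genes is beside each name and dotted lines mark 2-fold. The interferon list lies right of 2-fold except 1 gene, the homeostatic list left of 0 except 1 gene, and the S phase and the G2 and M phase medians of the TREM2+ pair are at 0.18 and 0.36.

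Most of the lowest genes are known from neurons. The 15 lowest by the same rule were Adarb2, Adgrb3, Grm5, C1ql3, Plppr4, Lrp1b, Cttnbp2, Mir124a-1hg, Nefl, Auts2, 5330434G04Rik, Pcsk2, Meg3, Grin2a and Itga9. Adarb2, an RNA-editing family protein of neurons, gave 6 against 157 UMIs, a log2 ratio of -5.75 (-7.22 to -4.60). Meg3, a long noncoding RNA abundant in neurons, had 227 CPM in P301S/E4/TREM2-, against 1693 CPM in E4/TREM2- (log2 ratio -2.90, interval -2.98 to -2.82), and Grm5, a glutamate receptor, was -3.33. The 11 neuron markers summed to 429.5 CPM in P301S/E4/TREM2-, against 2835 CPM in E4/TREM2-, 9 of them passed, and 8 were at least 2-fold lower, with a median of -2.61 (-2.77 to -2.30) beside -1.91 in the TREM2+ pair. Fewer neuronal nuclei and less neuronal RNA per droplet cannot be told apart in these sums. Nuclei with at least 10 UMIs of neuron markers numbered 16 (0.237%) in P301S/E4/TREM2- and 63 (1.36%) in E4/TREM2-. Without them the neuron markers summed to 65.8 CPM in P301S/E4/TREM2-, against 157 CPM in E4/TREM2-, the genes at least 2-fold lower came to 305 instead of 459, and the genes at least 2-fold higher to 587 instead of 602. Of the 459 lower genes 279 (60.8%) were still at least 2-fold lower, as were 561 (93.2%) of the 602 higher ones on their side. Markers of ependymal or choroid plexus cells summed to 76.7 CPM in P301S/E4/TREM2-, against 341 CPM in E4/TREM2-, most of it Ttr, those of astrocytes to 466 CPM in P301S/E4/TREM2-, against 394 CPM in E4/TREM2-, and those of oligodendrocytes to 202 CPM in P301S/E4/TREM2-, against 249.8 CPM in E4/TREM2-.

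The lowest genes without the neuronal nuclei were looked up after these values had been seen. They were led by Itga9, an integrin chain, at 7.73 CPM in P301S/E4/TREM2-, against 57.6 CPM in E4/TREM2-, Upk1b at 12.4 against 83.8 CPM, Tnfrsf17, the receptor BCMA, at 6.05 against 37.03 CPM, and Hlf, a clock-controlled transcription factor, at 9.27 against 55.1 CPM. The homeostatic Slc2a5, Ttr and Siglece were among the 15, Ttr at 73.5 against 352 CPM. In the TREM2+ pair, over all nuclei kept, Itga9 was -2.69, Upk1b -3.34, Tnfrsf17 -1.73 and Hlf -3.00 on the log2 scale. All 4 were lower in both pairs.

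The sums do not say how many nuclei took part, so nuclei were compared at equal depth. Each nucleus was thinned to 500 UMIs, which left out 0 nuclei of P301S/E4/TREM2-, 410 of E4/TREM2-, 0 of P301S/E4/TREM2+ and 1467 of the 4935 of E4/TREM2+. At least 3 UMIs of the interferon list were found in 24.5% (23.4 to 25.5%) of nuclei in P301S/E4/TREM2- and 1.90% (1.51 to 2.36%) in E4/TREM2-, and in 13.01% and 1.96% of P301S/E4/TREM2+ and E4/TREM2+. At a minimum of 2 UMIs, which narrowed the ratio of the shares by more than 1.5 times, the interferon shares were 42.3% in P301S/E4/TREM2- and 7.11% in E4/TREM2-. Unthinned at 3 UMIs, they were 49.7% in P301S/E4/TREM2- and 4.80% in E4/TREM2-. At least 3 UMIs of DAM stage 2 genes were found in 44.9% (43.7 to 46.1%) of nuclei in P301S/E4/TREM2- and 16.5% (15.3 to 17.6%) in E4/TREM2-, and in 57.6% and 11.6% of the TREM2+ libraries. The DAM stage 2 list includes members that were abundant without tau, such as Ctsl at 477 CPM and Cd68 at 374 CPM in E4/TREM2-. Its share is therefore not a count of nuclei in the second DAM step. Of the P301S/E4 libraries, P301S/E4/TREM2- had the higher interferon share and the lower DAM stage 2 share. Lipid genes passed 3 UMIs in 36.9% (35.7 to 38.1%) of nuclei in P301S/E4/TREM2- and 11.5% (10.6 to 12.6%) in E4/TREM2-, and MHC class I genes in 17.8% (16.9 to 18.7%) of nuclei in P301S/E4/TREM2- and 2.32% (1.89 to 2.82%) in E4/TREM2-. At 2 UMIs the lipid shares were 61.96% in P301S/E4/TREM2- and 30.4% in E4/TREM2-, and the MHC class I shares 40.02% in P301S/E4/TREM2- and 10.4% in E4/TREM2-. MHC class II genes passed in 1.79% (1.49 to 2.14%) of nuclei in P301S/E4/TREM2- and 1.68% (1.32 to 2.12%) in E4/TREM2-, beside 2.76% of P301S/E4/TREM2+ and 0.663% of E4/TREM2+, and thinned to 300 UMIs P301S/E4/TREM2- had the lower share, at 1.10% (0.861 to 1.37%), against 1.38% (1.07 to 1.76%) in E4/TREM2-. The homeostatic list still passed in 93.5% (92.9 to 94.1%) of nuclei in P301S/E4/TREM2- and 98.5% (98.1 to 98.9%) in E4/TREM2-. Most nuclei of both libraries held the list, and the mean of its UMIs per thinned nucleus was 9.16 in P301S/E4/TREM2- and 19.9 in E4/TREM2-.

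Single genes were counted in the same way, at 1 or more UMIs. Gpnmb was found in 6.66% (6.08 to 7.28%) of nuclei in P301S/E4/TREM2- and 0.0237% (0.000600 to 0.132%) in E4/TREM2-, and Spp1 in 3.39% (2.97 to 3.85%) of P301S/E4/TREM2-. Spp1 was in 0 of 4217 thinned nuclei of E4/TREM2-, which allows a share of up to 0.0711%. Apoe was found in 29.5% (28.4 to 30.6%) of nuclei in P301S/E4/TREM2- and 5.22% (4.57 to 5.93%) in E4/TREM2- (unthinned 48.4% and 7.46%), and Lpl in 4.07% (3.61 to 4.57%) of nuclei in P301S/E4/TREM2- and 0.261% (0.130 to 0.466%) in E4/TREM2-. With TREM2, Spp1 was in 12.4% and Lpl in 12.2% of P301S/E4/TREM2+ nuclei, both above their shares in P301S/E4/TREM2-, and Gpnmb in 6.08%. P2ry12 was found in 23.8% (22.8 to 24.9%) of nuclei in P301S/E4/TREM2- and 49.8% (48.3 to 51.3%) in E4/TREM2-. At least 3 UMIs of G2 and M phase genes were found in 1.01% (0.782 to 1.27%) of the nuclei in P301S/E4/TREM2-, 0.237% (0.114 to 0.436%) in E4/TREM2-, and 0.116% and 0.144% in P301S/E4/TREM2+ and E4/TREM2+. As a rough guide to background RNA, 139 neuron-rich nuclei of the series were used, with a median of 3248 UMIs before thinning. They reached 3 UMIs of the DAM stage 2 list in 1.44%, of the interferon list in 0.719% and of the lipid list in 5.04%. They held Apoe in 10.8% and Gpnmb in 0.719%. Only 16 of them came from P301S/E4/TREM2-, 63 from E4/TREM2- and 29 from E4/TREM2+, so the pooled value mostly measures other libraries than P301S/E4/TREM2-. The neuron-rich nuclei of E4/TREM2- held Apoe in 14.3% (6.75 to 25.4%), above the 5.22% of all its thinned nuclei. The source of their Apoe counts was not tested, so they do not set a background for this gene. Whether the Apoe share of E4/TREM2- reflects expression was not resolved. Among the 16 of P301S/E4/TREM2-, none reached 3 UMIs of the DAM stage 2 list or held Gpnmb, which with this many nuclei gives an upper bound of 20.6%. The interferon list, the lipid list and Apoe were each found in 1 of the 16, or 6.25% (0.158 to 30.2%). The DAM stage 2 and lipid shares of P301S/E4/TREM2- lay above these intervals, and its interferon, Apoe and Gpnmb shares lay within them, so the background of P301S/E4/TREM2- was not resolved for these.

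**Figure D4:**
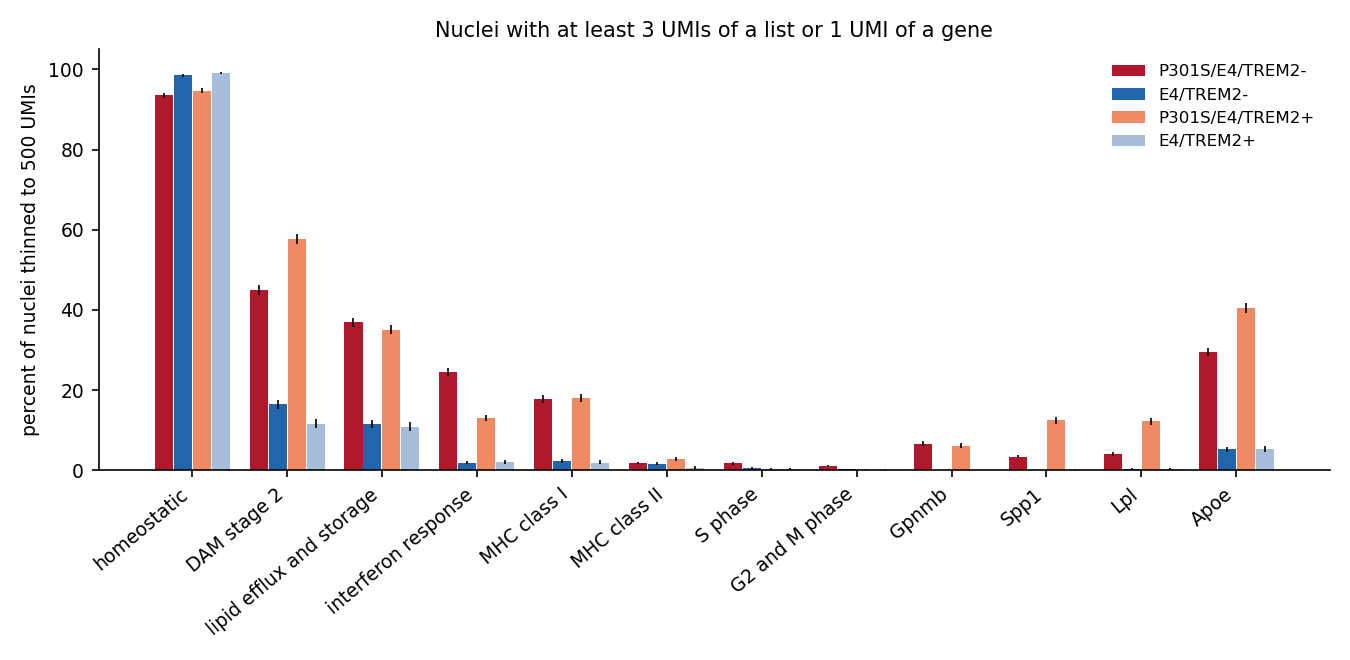
Percent of nuclei, each thinned to 500 UMIs, with at least 3 UMIs of a list or 1 UMI of a gene, in P301S/E4/TREM2-, E4/TREM2-, P301S/E4/TREM2+ and E4/TREM2+; lines are exact 95% binomial intervals. Interferon bars reach 24.5% in P301S/E4/TREM2- and 13.01% in P301S/E4/TREM2+, DAM stage 2 bars 44.9% and 57.6%, and both E4 libraries are below them in each.

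Within P301S/E4/TREM2-, the programmes could be set against each other nucleus by nucleus. Gpnmb was found in 450 thinned nuclei and was missing from 6306, with median depths before thinning of 1089 and 902 UMIs. The homeostatic list reached 3 UMIs in 69.3% (64.8 to 73.6%) of nuclei with Gpnmb and 95.2% (94.7 to 95.7%) of nuclei without. P2ry12 was found in 12.4% (9.54 to 15.9%) of nuclei with Gpnmb and 24.7% (23.6 to 25.7%) of nuclei without. Ahnak2 was found in 19.3% (15.8 to 23.3%) of nuclei with Gpnmb and 1.74% (1.44 to 2.10%) of nuclei without, Cd300lf in 23.3% (19.5 to 27.5%) of nuclei with Gpnmb and 7.88% (7.23 to 8.57%) of nuclei without, and Spp1 in 12.7% (9.74 to 16.1%) of nuclei with Gpnmb and 2.73% (2.34 to 3.16%) of nuclei without. These genes were thus more frequent where Gpnmb was, and homeostatic genes less frequent, while Lpl was not, at 3.78% (2.22 to 5.98%) of nuclei with Gpnmb and 4.09% (3.62 to 4.61%) of nuclei without. The other DAM stage 2 genes reached 3 UMIs in 54.2% (49.5 to 58.9%) of nuclei with Gpnmb and 42.3% (41.1 to 43.6%) of nuclei without, and lipid genes in 48% (43.3 to 52.7%) of nuclei with Gpnmb and 36.1% (34.9 to 37.3%) of nuclei without. Interferon genes reached 3 UMIs in 20.9% (17.2 to 24.9%) of nuclei with Gpnmb and 24.7% (23.6 to 25.8%) of nuclei without, and MHC class I genes in 18% (14.6 to 21.9%) of nuclei with Gpnmb and 17.8% (16.8 to 18.7%) of nuclei without, intervals that overlap. Nuclei of 1 library share their pool of mice, and these shares are descriptions.

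**Figure D5:**
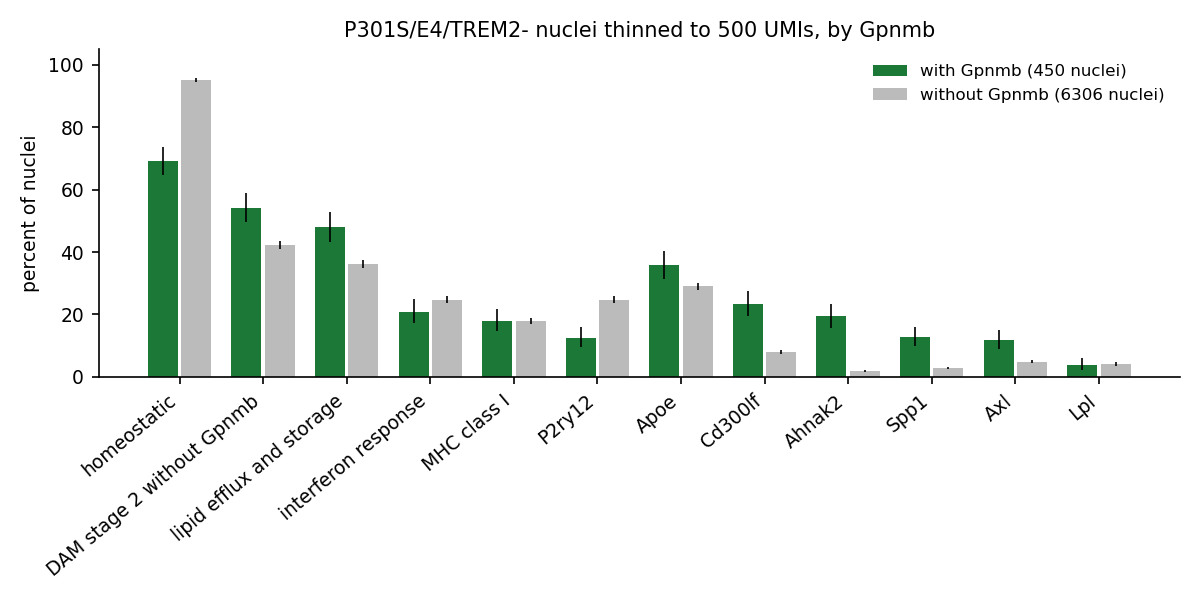
Percent of P301S/E4/TREM2- nuclei, each thinned to 500 UMIs, that held at least 3 UMIs of a list or 1 UMI of a gene, for 450 nuclei with Gpnmb (green) and 6306 without (grey); lines are exact 95% binomial intervals. Ahnak2, Cd300lf, Spp1 and Axl bars are higher with Gpnmb, homeostatic and P2ry12 bars lower, and Lpl, interferon and MHC class I bars overlap in their intervals.

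Nuclei with and without 3 interferon UMIs held DAM stage 2 genes at similar shares. The interferon background of P301S/E4/TREM2- was not resolved, and the part of free RNA in this even split was not tested. Of the 1652 nuclei with at least 3 interferon UMIs, 45.5% (43.04 to 47.9%) held 3 UMIs of DAM stage 2 genes, and of the 5104 others 44.7% (43.4 to 46.1%) did. MHC class I genes reached 3 UMIs in 20.2% (18.3 to 22.2%) of the 1652 and 16.99% (15.97 to 18.05%) of the others, and homeostatic genes in 94.9% (93.7 to 95.9%) and 93.03% (92.3 to 93.7%). Among single genes, pairs added after their values had been seen, Ifit3 was found in 16.7% (10.3 to 24.8%) of nuclei with Ifit2 and 2.17% (1.83 to 2.55%) of nuclei without, and in 16.98% (10.4 to 25.5%) with Cxcl10 and 2.18% (1.84 to 2.56%) without. Nuclei with 2 or more G2 and M phase UMIs numbered 134, and S phase genes reached 3 UMIs in 32.8% (24.97 to 41.5%) of them and 1.09% (0.852 to 1.37%) of the others. Their homeostatic share was 94.03% (88.6 to 97.4%), against 93.5% (92.9 to 94.1%) in the others, their DAM stage 2 share 38.1% (29.8 to 46.8%) against 45.05% (43.8 to 46.3%), and their Gpnmb share 3.73% (1.22 to 8.49%) against 6.72% (6.13 to 7.35%). The homeostatic intervals overlapped. Their median depth before thinning was 1170.5 UMIs, against 908.

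The pairs differed in the size or the sign of the ratio for some genes. By the difference of the log2 ratios (TREM2- pair minus TREM2+ pair), the 8 highest with a mean of at least 20 CPM over the 4 APOE4 libraries were Ccr6, Gnb4, Cxcl10, Gm12166, Ahnak2, Slfn9, Hpse and Rnf121. Of these Cxcl10, Ahnak2 and Hpse were far higher in both pairs and rest on few UMIs in the E4 libraries, with differences of 4.34 (2.32 to 7.46), 3.49 (1.44 to 6.63) and 2.89 (-0.29 to 8.46). The interval of Hpse, which had 1 UMI in E4/TREM2- and 5 in E4/TREM2+, includes 0. Ccr6 (ENSMUSG00000040899, chr17:8236043-8257141 on mm10), a chemokine receptor known from lymphocytes, had 62.4 CPM in P301S/E4/TREM2-, 3.67 in E4/TREM2-, 1.09 in P301S/E4/TREM2+ and 51.5 in E4/TREM2+. Without Apoe it had 71.4 CPM in P301S/EKO/TREM2-, against 1.65 CPM in P301S/EKO/TREM2+. It was high in 3 of the 6 libraries and near 1 to 4 CPM in the others, in no order of tau, Apoe or TREM2 alone. Gnb4, a G protein beta subunit, had 53.6 CPM in P301S/E4/TREM2-, 2.36 in E4/TREM2-, 18.3 in P301S/E4/TREM2+ and 42.4 in E4/TREM2+. Without Apoe its level was 3.52 CPM in P301S/EKO/TREM2-, against 49.1 CPM in P301S/EKO/TREM2+. It too was highest in 3 libraries, and P301S/E4/TREM2- and E4/TREM2+ were among the 3 for both genes. Slfn9, of the interferon-related Schlafen family, had 67 CPM in P301S/E4/TREM2-, 12.9 in E4/TREM2-, 25.9 in P301S/E4/TREM2+ and 37.5 in E4/TREM2+. The 8 lowest by the same rule were Flt1, Akap5, Etl4, Gas7, Sst, Nefl, Stmn2 and Ntm. Flt1, a VEGF receptor, had 9.32 CPM in P301S/E4/TREM2-, 2.89 in E4/TREM2-, 75.4 in P301S/E4/TREM2+ and 1.17 in E4/TREM2+, and did not pass the level filter in the TREM2- pair. Akap5, an anchor of kinase A, had 9.95 CPM in P301S/E4/TREM2-, 21 in E4/TREM2-, 63.1 in P301S/E4/TREM2+ and 17.3 in E4/TREM2+. Sst, Nefl, Stmn2 and Ntm are neuronal, and the neuron markers of the TREM2+ pair summed to 201 CPM in P301S/E4/TREM2+, against 980.0 CPM in E4/TREM2+. The difference between the pairs was not tested for any of these genes.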

How the data were processed

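Single-nucleus RNA was counted in 6 libraries, 1 per genotype, on the 10x Genomics v3.1 chemistry. Per the file headers and the submitters' processing notes, the deposited files hold unnormalized UMI counts of 31053 features, made with Cell Ranger 3.0.1 on mm10, and the labels' protocol excluded doublets in the sort gate; no doublet caller was run here. The authors' deposited marker table, whose values are a score, was read only for the names of the TERM genes. Counts were summed over nuclei per library and scaled to CPM in Python 3.11.15 with numpy 2.4.6, pandas 2.3.3 and scipy 1.17.1. Ratios carry an exact conditional counting interval, and a count of 0 was set to 3 UMIs for a bound. The calculation was tested on simulated data, and nuclei were thinned with a fixed seed. A few genes of the lists are not reported here by name. With 1 library a group no test was possible, and called means past 2-fold. Named genes were the 15 highest and 15 lowest ratios with a mean of at least 20 CPM, and the 8 highest and 8 lowest differences between pairs with a mean of at least 20 CPM over the 4 APOE4 libraries. TMM factors came from edgeR 4.0.16 in R 4.3.3, for 1 alternative only. Identifiers were matched to GENCODE vM21 (31011 of 31053) and promoters to RefSeq on GRCm38.p6. The members and lists were chosen with earlier results of these data known. Depth and its intervals are given beside the values.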

Additional observations from a re-analysis of the deposited data

Results flagged for a closer look

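For 7 of the genes named by the difference between pairs, the tau ratio had opposite signs without and with TREM2, and this is what set them apart. Each pair is 1 library against 1, so the difference was not tested, and intervals cover counting error only. Ccr6 had 62.4 CPM in P301S/E4/TREM2- against 3.67 CPM in E4/TREM2- (without TREM2), then 1.09 CPM in P301S/E4/TREM2+ against 51.5 CPM in E4/TREM2+ (with it), a difference of log2 ratios (TREM2- pair minus TREM2+ pair) of 9.66 (8.16 to 11.29). Gnb4 had 53.6 CPM in P301S/E4/TREM2- against 2.36 CPM in E4/TREM2- (without TREM2), then 18.3 CPM in P301S/E4/TREM2+ against 42.4 CPM in E4/TREM2+ (with it), a difference of 5.72 (4.68 to 6.92). The predicted transcript Gm12166 had 89.1 CPM in P301S/E4/TREM2- against 16.3 CPM in E4/TREM2- (without TREM2), then 14.1 CPM in P301S/E4/TREM2+ against 35.4 CPM in E4/TREM2+ (with it), a difference of 3.78 (3.20 to 4.36). For these 3 genes, and for Slfn9 and Rnf121 below, the E4 libraries differed as well as the P301S/E4 libraries. Slfn9, of the Schlafen family, had 67 CPM in P301S/E4/TREM2- against 12.9 CPM in E4/TREM2- (without TREM2), then 25.9 CPM in P301S/E4/TREM2+ against 37.5 CPM in E4/TREM2+ (with it), a difference of 2.92 (2.35 to 3.49). Rnf121, a ubiquitin ligase, had 354 CPM in P301S/E4/TREM2- against 287 CPM in E4/TREM2- (without TREM2), then 17.7 CPM in P301S/E4/TREM2+ against 88.99 CPM in E4/TREM2+ (with it), a difference of 2.63 (2.28 to 2.99). Without Apoe, Rnf121 had 225 CPM in P301S/EKO/TREM2- and 287 CPM in P301S/EKO/TREM2+. Its low libraries were thus P301S/E4/TREM2+ and E4/TREM2+. In the other direction, Akap5 had 9.95 CPM in P301S/E4/TREM2- against 21 CPM in E4/TREM2- (without TREM2), then 63.1 CPM in P301S/E4/TREM2+ against 17.3 CPM in E4/TREM2+ (with it), a difference of -2.95 (-3.58 to -2.31). Gas7, a cytoskeletal adaptor, had 12.5 CPM in P301S/E4/TREM2- against 18.6 CPM in E4/TREM2- (without TREM2), then 44.3 CPM in P301S/E4/TREM2+ against 12 CPM in E4/TREM2+ (with it), a difference of -2.46 (-3.15 to -1.78). Among nuclei of P301S/E4/TREM2- thinned to 500 UMIs, Gpnmb was found in 1.58% (0.327 to 4.54%) of those with Ccr6 and in 6.81% (6.21 to 7.44%) of those without, a pair of genes chosen after its values were seen.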

How the results depend on the processing

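Of 20 alternatives, 2 of them added after seeing the data, 16 bore on list medians. In them 6 of 589 list medians had the other sign than the reported one. The complement median was 0.18 with no level filter against -0.15, the ribosomal protein median -0.12 relative to all genes against 0.01, and the MHC class II median, reported at -0.04, was 0.02 at 5 CPM and with no filter, 0.12 at 50 CPM and 0.05 with each nucleus given equal weight. Among shares of nuclei, the log2 ratio of P301S/E4/TREM2- over E4/TREM2- at other thinning depths and UMI minimums ran between 2.57 and 3.62 for interferon (reported 3.69), 1.94 and 3.59 for MHC class I (2.94), 0.88 and 1.87 for DAM stage 2 (1.45), 1.03 and 2.09 for lipid genes (1.68), and across 0 for MHC class II, at -0.34 to 0.83 (0.09). Genes at least 2-fold higher came to 189 (5.05%) with a mean of at least 50 CPM and 1527 (8.82%) with no level filter. Genes at least 2-fold lower came to 820 (7.40%) at 5 CPM, 97 (2.59%) at 50 CPM and 3208 (18.5%) with no filter; they were 3.31% of 9090 genes without nuclei over 3 times the median UMI count, 290 (3.20%) without neuronal and glial nuclei, 305 (3.35%) without neuronal nuclei and 305 (3.35%) with each nucleus given equal weight. The homeostatic median was -1.04 relative to all genes and -0.83 without nuclei that held Gpnmb. The DAM stage 2 median was 1.45 at 50 CPM, 2.29 with at most 1% mitochondrial UMIs and 1.49 without Gpnmb nuclei. The interferon median was 1.93 at 50 CPM, and the TERM median 1.59 with border macrophages kept and 1.50 without Gpnmb nuclei. Fewer genes at a higher level minimum, and fewer nuclei, follow from how these alternatives are built, and other causes were not tested. Among the gene counts and the homeostatic, DAM stage 2, interferon, MHC class I, lipid and TERM medians, 17 values moved, as given above. The other 111 of these stayed within 1.5 times the count, or within the counting interval of the list. Of the remaining results, shares of nuclei included, 462 values stayed, 66 moved and 1 was reversed. The median of interferon-inducible GTPases ran from 0.15 to 1.58 (main setting 0.91), and that of the PYHIN family from 1.60 to 3.26 (1.81). No paired analysis was possible because each genotype has 1 library, and for the same reason no replicate could be left out. Depth limits the highest ratios, since several rest on 1 to 3 UMIs in E4/TREM2-.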

Other observations

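Among 8 genes of purine signalling that passed the level filter, P2rx4, an ATP-gated channel of lysosomes and the cell surface, had 451 CPM in P301S/E4/TREM2-, against 173 CPM in E4/TREM2- (log2 ratio 1.38, interval 1.26 to 1.50). Entpd1, which breaks down extracellular ATP, had 228 CPM in P301S/E4/TREM2-, against 417 CPM in E4/TREM2- (log2 ratio -0.87, interval -0.97 to -0.77), and P2rx7, another ATP-gated channel, 174 CPM in P301S/E4/TREM2-, against 154 CPM in E4/TREM2- (log2 ratio 0.18, interval 0.04 to 0.32). The ATP receptors of this list thus lay on both sides of 0, with P2ry12 and P2ry13 past 2-fold lower and P2rx4 past 2-fold higher. Of the Ms4a family 5 of 9 genes passed, and Ms4a14 and Ms4a7 were at least 2-fold higher, at 2.26 and 1.62; Ms4a7 also marks border-associated macrophages. Of 20 genes near Alzheimer's disease risk loci 19 passed and 3 were at least 2-fold higher, Treml2, Apoe and Ctsb, with a median of 0.16 (0.06 to 0.26) beside -0.18 in the TREM2+ pair. Over all genes 6.49% were at least 2-fold higher in the TREM2- pair, with a median of 0.13. Treml2, a receptor encoded beside Trem2, had 22.5 CPM in P301S/E4/TREM2-, against 2.62 CPM in E4/TREM2- (176 against 10 UMIs), and in the TREM2+ pair 20.8 CPM in P301S/E4/TREM2+, against 10.5 CPM in E4/TREM2+. Its log2 ratio was 3.10 (2.18 to 4.18) without TREM2 and 0.98 (0.43 to 1.56) with it. The others stayed within 2-fold, among them Inpp5d, which restrains signalling below TREM2, at 0.12, Spi1, which encodes PU.1, at -0.21, Bin1 at 0.16 and Picalm at -0.55.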
